A study of Mus musculus with 8 samples.

Results

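The retinoid receptors are 6 genes, Rxra, Rxrb and Rxrg for the retinoid X receptors and Rara, Rarb and Rarg for the retinoic acid receptors, out of 26182 genes with a curated RefSeq transcript. Their members were taken by name, each with its RefSeq gene body (GRCm38, the same sequence as mm10) plus 50 kb on each side, and every ATAC-seq peak that overlapped such a window by at least 1 bp was used. This gave 538 of the 345333 peaks in 4 lists. The samples were lens epithelium and lens fibers, microdissected from CD1 mice at E14.5 and P0.5. Each of the 4 groups had 2 libraries, 8 in all, and no group carried an allele or received an agent. ATAC-seq uses the transposase Tn5 to cut open chromatin, so that fragments pile up over accessible DNA. The peak lists are named as pooled by group, so every value below stands for 1 list per group, without replicate error and without a test. The lists carry no read counts, and the depth behind a single peak is unknown.

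Retinoic acid, made from vitamin A, acts through pairs of nuclear receptors in which a retinoic acid receptor binds DNA together with a retinoid X receptor. The pair sits on direct repeats of a hexamer, recruits corepressors without ligand and exchanges them for coactivators when retinoic acid binds. Retinoid X receptors also pair with the vitamin D, thyroid hormone, PPAR and liver X receptors. In the eye, retinoic acid takes part in morphogenesis of the optic cup and lens, and retinoid receptors are known regulators of crystallin genes.

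Sequences are shown first for the places where a receptor gene itself holds such a repeat under a peak. The hexamer searched was AGGTCA, with G also accepted as its first base and T in place of its second G, on both strands, in direct repeats with 1 (DR1), 2 (DR2) or 5 (DR5) bases between them. Overlapping matches were kept. In the sequences below, read 5′ to 3′ on the stated strand from the GRCm38 genome, capitals mark the hexamers of the repeat, and single hexamers stay in lower case. The first covers the 150 bases before the downstream curated start of Rarb (chr14:16575477-16575626, minus strand), and the second lies in the intron before the fourth curated start of Rara (chr11:98959968-98960064, plus strand). The third is an intron of Rarg (chr15:102250777-102250880, minus strand) where a DR1 and a DR5 share a hexamer. The last pair lies in the Rxrb window, first upstream of Rxrb in an intron of H2-Ke6 (chr17:34027850-34027932, plus strand) and then in an intron of Rxrb near the start of Col11a2 (chr17:34036800-34036860, minus strand).
Rarb promoter: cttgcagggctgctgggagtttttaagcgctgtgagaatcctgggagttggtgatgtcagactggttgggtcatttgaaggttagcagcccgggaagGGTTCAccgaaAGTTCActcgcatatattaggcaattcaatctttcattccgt
Rara DR5: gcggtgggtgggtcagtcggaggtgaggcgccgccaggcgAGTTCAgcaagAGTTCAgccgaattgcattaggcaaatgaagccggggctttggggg
Rarg intron: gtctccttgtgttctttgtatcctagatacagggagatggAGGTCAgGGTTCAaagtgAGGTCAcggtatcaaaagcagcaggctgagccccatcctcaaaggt
Rxrb upstream DR1: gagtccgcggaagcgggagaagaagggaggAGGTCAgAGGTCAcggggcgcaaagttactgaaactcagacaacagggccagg
Rxrb DR5: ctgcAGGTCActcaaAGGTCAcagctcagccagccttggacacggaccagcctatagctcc

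The DR5 of Rarb began 53 bp upstream of the start site, inside a peak called in all 4 lists. Its letters are those of the classical retinoic acid response element of the inducible Rarb promoter. The Rara DR5, 463 bp upstream of the fourth start, lay in a region called in all 4 lists. The E14.5 peaks over that start covered this DR5. The P0.5 peaks over the start began downstream of the repeat, at 98960165 in epithelium and 98960257 in fiber. By contrast, the Rarg repeats lay 11 and 20 bp from the summit of an intron region called in P0.5 fiber alone (rank 48.9%), and the Rxrb DR5 lay 14 bp from the summit of a region called in both E14.5 lists (ranks 61.2% in epithelium and 34.2% in fiber) and in neither P0.5 list. The Rxrb DR1 stood at −3.93 kb from the first Rxrb start, in a region of the H2-Ke6, Slc39a7 and Ring1 promoters called in all 4 lists. In total, the members' regions held 4 DR5 and 2 DR1 matches and no DR2 match, with none in the regions of the Rxra and Rxrg windows.

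Such repeats were rare throughout. Peaks of the 4 lists were merged where they lay within 10 bp of each other, which gave 264 regions in the windows of the 6 genes and 185271 in all. Within 200 bp around the summit, DR5 matched 2 of the 264 regions (0.758%, Wilson 95% interval 0.208 to 2.72%) and 0.108% of all regions. DR1 matched 1 region (0.379%, 0.0669 to 2.11%) against 0.166% of all regions. No region of the members held a DR2, which allows a share of up to 1.43%, beside 0.132% of all regions. Of the 3, the DR5 interval alone lay above the value of all regions, and it rests on 2 regions, those of Rarg and Rxrb. The Rarg region had a −log10 q of 2.76 and does not pass the q value under 0.001 used below, which leaves the Rxrb region alone. Outside promoters DR5 matched 1 of 210 regions (0.476%, 0.0841 to 2.65%) beside 0.121%, which lies inside the interval. The Rarb repeat, 99 bp from the strongest summit, ran past the edge of that stretch. These intervals and those below cover counting error alone. Of the 13 RefSeq promoter windows of the members, from 250 bases before to 50 after a start, 1 held a DR5, that of Rarb, beside 0.0974% of 32851 promoter windows. A match is a run of letters and not a measured binding site. Among the other consensus sequences, Maf (TGCTGA) was present in 20.8% of the members' regions (16.4 to 26.1%) and 23.1% of all regions, Tead (GGAATG) in 9.85% (6.81 to 14.0%) and 13.7%, and Pitx (TAATCC) in 4.17% (2.34 to 7.31%) and 5.65%.

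Every member had a promoter peak in every list. A promoter was counted where a peak overlapped the 2 kb on either side of a curated start site, and all 6 receptor genes had such a peak in all 4 lists. With a stricter q value under 0.001, 5 of the 6 had one in P0.5 fiber, without Rxrg. Over all protein-coding genes the shares were 70.3% in epithelium and 71.2% in fiber at E14.5, against 67.0% in epithelium and 64.6% in fiber at P0.5, with 60.6% of genes in all 4 lists. Peak strength was placed by the rank of the fold enrichment within its own list, given as percent of the list, so that 1% is near the strongest peak and 100% the weakest. Peaks of equal fold enrichment shared a rank, and P0.5 fiber had just 102 different values, which is why 48.9% and 69.2% recur there. Most receptor promoters ranked behind the median protein-coding gene with a promoter peak, whose rank was 7.68% in epithelium and 6.10% in fiber at E14.5, against 12.8% in epithelium and 10.3% in fiber at P0.5. Rxrb ranked ahead of that median in all 4 lists, Rarb in the 2 epithelium lists, and the other 4 genes in none.

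**Figure D1:**
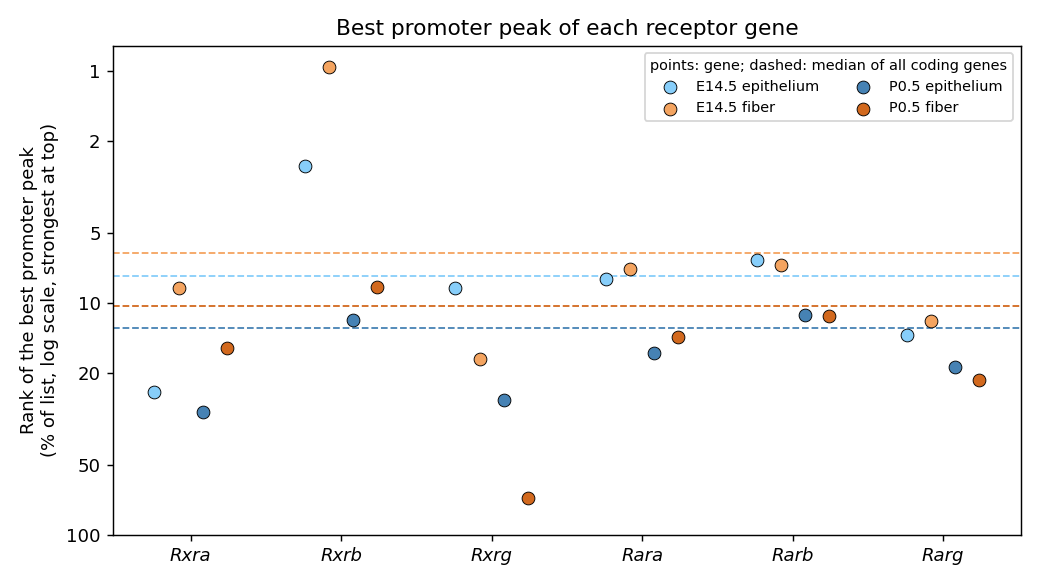
Rank of the best promoter peak of each receptor gene within its list (vertical axis, percent of the list on a log scale with the strongest peaks at the top), 1 point per pooled list, with dashed lines at the median of all protein-coding genes that have a promoter peak. Rxrb stands highest at 0.962% in E14.5 fiber, and Rxrg falls to 69.2% in P0.5 fiber.

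Among the retinoid X receptors, Rxrb had the strongest promoter peak. Rxrb (chr17:34031812-34038403, plus strand) lies in the major histocompatibility region, and its promoter peak ranked at 2.56% in epithelium and 0.962% in fiber at E14.5, against 11.8% in epithelium and 8.49% in fiber at P0.5. The peak was 2189, 2866, 1521 and 1993 bp wide in the same order. In every list but P0.5 epithelium, where Rarb stood at 11.3%, it was the highest-ranked promoter peak of the family. Yet it also covered the promoters of Slc39a7, a zinc transporter gene, and of H2-Ke6, which encodes a hydroxysteroid dehydrogenase. The accessible DNA therefore cannot be assigned to Rxrb alone. Another strong region over H2-Ke6 and Ring1 (a Polycomb gene), at chr17:34023903-34029738, ranked at 4.09%, 3.67%, 12.8% and 5.11%. In P0.5 epithelium the strongest peak outside the Rxrb promoters was instead at the H2-K1 promoter, at 11.3%. Of the 24 regions of this window, 9 lay at promoters of other genes alone.

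Rxra, the main retinoid X receptor gene of skin and liver, had an accessible upstream start and little at its other starts. The peak over the start at position 27677201 of chromosome 2 ranked at 25.3% in epithelium and 8.59% in fiber at E14.5, against 31.6% in epithelium and 15.7% in fiber at P0.5. Fiber thus ranked ahead of epithelium at both stages. A neighbouring peak, with its summit 1970 bp inside the gene in E14.5 epithelium and 1922 bp in P0.5 epithelium, ranked slightly ahead of the start itself there, at 24.3% and 29.6%. The internal starts at 27709292 and 27710583 shared 1 peak, in E14.5 fiber alone, with a rank of 80.6% and a −log10 q of 2.54.

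Rxrg, a receptor known from muscle, brain and cone photoreceptors, had the lowest-ranked promoter peak of the family in P0.5 fiber. The peak over its first start (position 167598362 of chromosome 1) ranked at 8.62% in epithelium and 17.5% in fiber at E14.5, against 26.3% in epithelium and 69.2% in fiber at P0.5. Its −log10 q was 89.8, 32.7, 15.9 and 2.0, and its width 779, 700, 549 and 195 bp. Epithelium ranked ahead of fiber at both stages, the reverse of Rxra and Rxrb. The P0.5 fiber peak was 1 of 13934 peaks with the same fold enrichment, the largest tie of that list. The second start, at 167618265, had a peak in both E14.5 lists (61.2% in epithelium and 36.0% in fiber) and in neither P0.5 list.

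Among the retinoic acid receptors, Rara, the broadly expressed one, had several open starts. The peak over its first 2 curated starts (positions 98937696 and 98937718 of chromosome 11) ranked at 7.91%, 7.16%, 16.5% and 15.7% in E14.5 epithelium, E14.5 fiber, P0.5 epithelium and P0.5 fiber. The peak at the start at 98960471, the one that follows the DR5 shown above, ranked at 16.4%, 11.1%, 18.0% and 26.4%. In P0.5 fiber the best Rara promoter peak lay elsewhere, 1125 bp upstream of the start at 98964872, at 14.0%. No peak covered the start at 98939711 in any list. The P0.5 peaks over the first starts were narrow, 636 bp in epithelium and 348 bp in fiber, against 1264 and 2561 bp at E14.5.

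Rarb, the receptor gene that retinoic acid itself induces, was open at 1 of its 2 curated starts. Its far start, at 17082331 of chromosome 14, had no peak within 2 kb in any of the 4 lists. The start at 16575476, which lies 507 kb further along the gene, ranked at 6.52% in epithelium and 6.87% in fiber at E14.5, against 11.3% in epithelium and 11.4% in fiber at P0.5. Epithelium and fiber stood close at each stage. The summit lay 95, 144, 144 and 194 bp upstream of the start, and in every list the peak covered the DR5 printed above.

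Rarg, known from epidermis and cartilage, was likewise strongest at its downstream start. The peak over the start at 102246500 of chromosome 15 ranked at 13.8% in epithelium and 11.9% in fiber at E14.5, against 18.8% in epithelium and 48.9% in fiber at P0.5. In P0.5 fiber a separate peak, 533 bp wide and with its summit upstream of that start, ranked ahead at 21.4%. At the upstream start, 102257522, the best peaks ranked at 43.5%, 38.0%, 42.9% and 48.9%, and none of them covered the start itself. The peak width at the downstream start was 2457, 2727 and 2130 bp in the first 3 lists and 170 bp in P0.5 fiber, where 3 peaks lay within 2 kb of the start.

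Around the promoters, the 264 regions were called in a list about as often as regions elsewhere in 3 of the lists. Of these regions, 54.9% were called in E14.5 epithelium (Wilson 95% interval 48.9 to 60.8%), beside 49.4% of all merged regions. That share joined unlike windows. In E14.5 epithelium the Rxra window stood at 31.3% (21.5 to 43.2%), and the regions without that window at 62.9% (56.0 to 69.4%). These intervals lay below and above 49.4%. The share of the 264 regions in E14.5 fiber was 64.4% (58.4 to 69.9%) beside 66.1%, and in P0.5 epithelium 26.1% (21.2 to 31.8%) beside 28.0%. In P0.5 fiber it was 38.6% (33.0 to 44.6%) beside 30.0%, the one interval of the 4 that lay clear of the value of all regions. With a q value under 0.001 this no longer held, as the share in P0.5 fiber was 24.4% (18.8 to 30.9%) beside 19.9%. A caution belongs to that list, in which 48.9% of peaks had a q value under 0.001, against 80.5 to 87.9% in the other 3. Among the members' 124 P0.5 fiber peaks, 57 did.

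**Figure D2:**
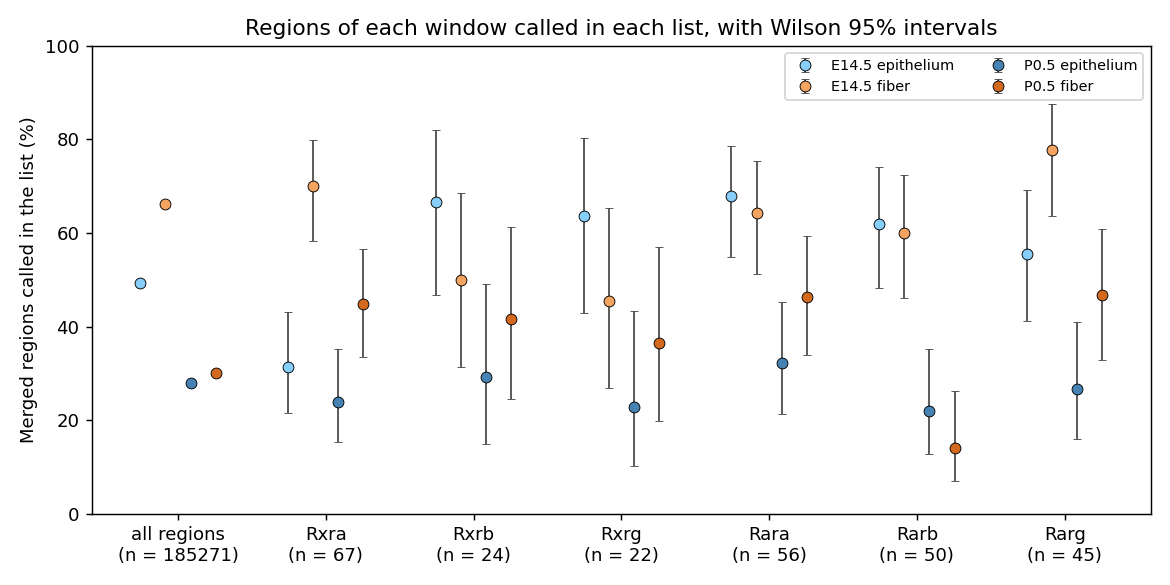
Share of merged regions called in each of the 4 lists (vertical axis, percent), for all regions and for the window of each receptor gene, with Wilson 95% intervals that cover counting error only. Rxra separates the tissues at E14.5, with 70.1% in fiber and 31.3% in epithelium. At P0.5 its intervals overlap (33.5 to 56.6% in fiber and 15.3 to 35.3% in epithelium). Rarb is lowest in P0.5 fiber at 14.0%.

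By pattern, 35 of the 264 regions (13.3%) were called in all 4 lists, beside 10.9% of all regions. E14.5 fiber alone had 58 (22.0%, beside 29.3%), E14.5 epithelium alone 41 (15.5%, beside 12.9%) and P0.5 fiber alone 40 (15.2%, beside 12.6%). Both fiber lists and no other shared 12 regions (4.55%, interval 2.62 to 7.78%), beside 2.43%. P0.5 epithelium alone held 3 (1.14%, interval 0.387 to 3.29%, beside 4.63%). The shares of E14.5 fiber alone and P0.5 epithelium alone were thus below those of all regions, and the share of the 2 fiber lists above. Of the 12 regions of the 2 fiber lists, Rxra held 6, Rarg 4, Rara and Rarb 1 each, and Rxrb and Rxrg 0.

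The windows differed among themselves more than their sum did. Rxra was the gene with the most fiber regions, as 43 of its 67 regions (64.2%, interval 52.2 to 74.6%) were called in at least 1 fiber list and in no epithelium list, beside 44.4% of all merged regions. Across the 6 windows together this share was 41.7%, in Rarg 40.0%, in Rarb 36.0%, in Rara 32.1%, in Rxrg 31.8% and in Rxrb 25.0%. The numbers of peaks in its window were 47 in fiber and 23 in epithelium at E14.5, and 36 in fiber and 20 in epithelium at P0.5. No other member had more peaks in fiber at E14.5 by such a margin, since Rarg had 25 and 35, Rarb 31 and 30, Rara 44 and 37, Rxrb 23 and 12, and Rxrg 14 and 10 in E14.5 epithelium and E14.5 fiber. At P0.5 Rxra did not stand apart in this count, as Rxrb had 8 in epithelium and 16 in fiber, and Rarg 12 and 23. With a q value under 0.001 Rxra kept 37 in fiber and 21 in epithelium at E14.5 but had 16 in each tissue at P0.5. Rarg then had 11 in epithelium and 9 in fiber at P0.5, and Rxrb 6 and 9.

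Most of the fiber regions of Rxra lay in its first intron, between the open upstream start and the second exon of the longest transcript. Outside promoters, this intron held 30 regions, of which 22 were called in a fiber list and no epithelium list and 0 the other way round. Of all merged regions, 44.4% had the first pattern and 19.8% the reverse. Of the 22, E14.5 fiber alone had 13, P0.5 fiber alone 4, and both fiber lists 5. The 4 of P0.5 fiber alone had a −log10 q of 1.33 to 2.76, so none of them passes a q value under 0.001. The other 8 of the 30 regions were called in both tissues, 3 of them in all 4 lists. The fiber region with the best rank, 2709 bp wide at chr2:27726809-27729517 and 50.9 kb from the upstream start, ranked at 6.83% in E14.5 fiber with a −log10 q of 142, and at 48.9% in P0.5 fiber with a −log10 q of 2.76. It had no peak in either epithelium list. Its sequence around the summit (chr2:27728049-27728198, plus strand, GRCm38) is shown because it had the best rank of the family's regions called in fiber alone, beside that of the strongest region of the Rxra window in every list (chr2:27740343-27740492). Neither 150 base stretch holds a hexamer, so both stand in lower case.
Rxra first intron, fiber lists: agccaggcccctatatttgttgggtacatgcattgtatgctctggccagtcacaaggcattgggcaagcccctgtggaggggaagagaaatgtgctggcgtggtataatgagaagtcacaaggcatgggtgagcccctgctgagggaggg
Rxra second intron, all lists: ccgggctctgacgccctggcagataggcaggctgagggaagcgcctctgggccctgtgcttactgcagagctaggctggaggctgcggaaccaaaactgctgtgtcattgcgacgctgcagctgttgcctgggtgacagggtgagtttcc

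The second of these, at chr2:27738688-27740909 in the second intron and 63.2 kb from the upstream start, ranked at 8.02% in epithelium and 4.20% in fiber at E14.5, against 19.6% in epithelium and 11.4% in fiber at P0.5. Its rank was ahead of the Rxra promoter in all 4 lists. Other regions of the Rxra gene were called in 1 list alone. The region at chr2:27722670-27723202, 45.7 kb from the upstream start, was called in E14.5 fiber at 16.6%, which made it the strongest region of the family called in that list alone. The region at chr2:27744835-27745186 in intron 4 was called in P0.5 fiber at 18.2%, the strongest called in that list alone outside the promoters of other genes. Nearer to the start, at 5.0 and 5.92 kb, were 2 more regions of both fiber lists, at ranks of 42.8% and 64.1% in E14.5 fiber and 21.4% and 18.2% in P0.5 fiber. For the epithelium lists, the region with the best single rank among those shared by both and without a fiber peak lay 24.0 kb upstream of Rxra, at 32.1% in E14.5 and 52.3% in P0.5. A Rarb intron region of the same pattern ranked at 46.8% and 36.4%.

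**Figure D3:**
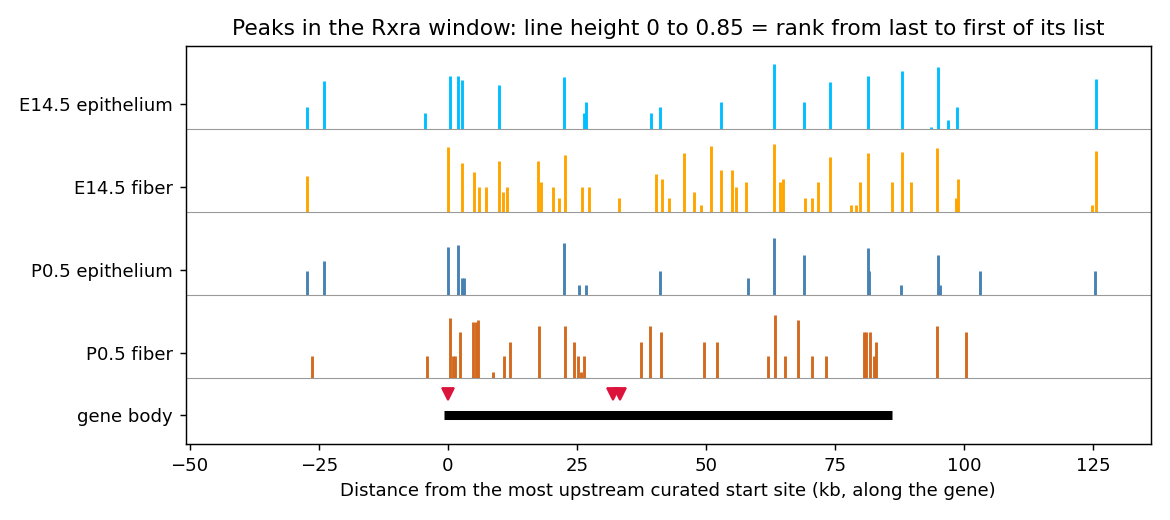
Peaks in the Rxra window by distance of the summit from the upstream curated start (horizontal axis, kb along the gene), 1 row per pooled list; a taller line is a higher rank within its list, triangles mark curated starts and the black bar the gene body. The first intron carries many lines in the 2 fiber rows and few in the epithelium rows, and the line at 63.2 kb is present in all 4 rows.

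Rarb showed a different picture. It is the longest member (651 kb), and its window held 50 regions. Of these, 31 were called in E14.5 epithelium (62.0%, beside 49.4% of all merged regions) and 30 in E14.5 fiber (60.0%, beside 66.1%). P0.5 epithelium had 11 (22.0%, beside 28.0%), against 7 in P0.5 fiber. The share in P0.5 fiber was 14.0% (6.95 to 26.2%), beside 30.0% of all merged regions, and was the lowest of the 6 windows, the other 5 being between 36.4% and 46.7%. It was 2.78% (0.492 to 14.2%) beside 19.9% with a q value under 0.001, and 23.1% (11.0 to 42.1%) beside 45.5% with lists of equal size. Of the 50 regions, 1 was called in all 4 lists, and that was the open promoter. In introns outside promoters, 6 regions were called in P0.5 fiber, 10 in P0.5 epithelium, 25 in E14.5 fiber and 28 in E14.5 epithelium.

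The strongest Rarb intron regions were all without a P0.5 fiber peak. In the first intron, the region at chr14:16841041-16841292, 241 kb from the far start, ranked at 11.5% in E14.5 epithelium, 8.87% in E14.5 fiber and 29.6% in P0.5 epithelium. The region at chr14:16897601-16898727, 184 kb from the far start, ranked at 10.6%, 28.4% and 18.0% in the same lists. In the second intron, chr14:16588988-16589865 ranked at 13.3%, 11.7% and 29.6%. Of the 50 regions, 6 had this pattern of all lists but P0.5 fiber (12.0%, interval 5.62 to 23.8%), beside 8.42% of all merged regions. The region at chr14:16434164-16434997 in intron 7 was called at E14.5 alone, at 26.4% in epithelium and 9.99% in fiber, the best rank of the family in that pattern. The strongest P0.5 fiber peak of Rarb outside its promoter ranked at 48.9%. The summit of the first of these regions (chr14:16841083-16841232, minus strand) is printed because it ranked highest in E14.5 fiber among the Rarb intron regions called in all lists but P0.5 fiber, and it holds no hexamer.
Rarb first intron, all lists but P0.5 fiber: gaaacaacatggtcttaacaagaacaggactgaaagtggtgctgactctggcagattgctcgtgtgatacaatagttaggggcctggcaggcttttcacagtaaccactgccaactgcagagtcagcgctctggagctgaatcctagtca

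**Figure D4:**
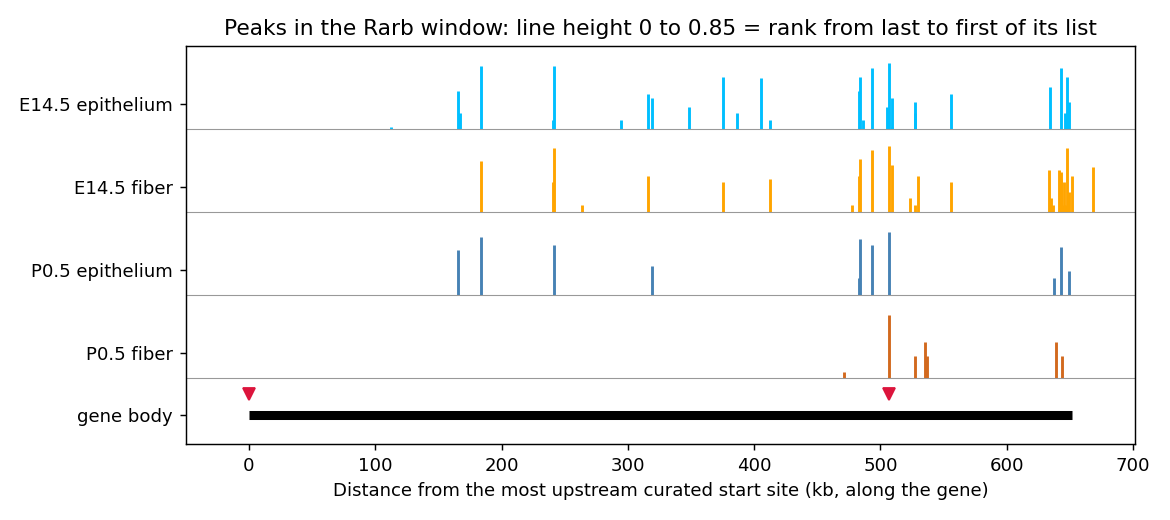
Peaks in the Rarb window by distance of the summit from the far curated start (horizontal axis, kb along the gene), 1 row per pooled list; a taller line is a higher rank within its list, triangles mark curated starts and the black bar the gene body. No peak stands at the far start, all 4 rows have a tall line at the start 507 kb along the gene, and the P0.5 fiber row is otherwise nearly empty.

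The remaining windows were shaped by their neighbours or held few regions. Rxrg had 14, 10, 6 and 8 peaks in the 4 lists, and its strongest shared region outside the promoters was in the second intron (chr1:167620295-167621107), at 13.8% in epithelium and 12.3% in fiber at E14.5, against 36.4% in epithelium and 48.9% in fiber at P0.5. This region followed the Rxrg promoter in that P0.5 fiber had the lowest rank. A region of intron 6 (chr1:167632205-167632695) was called in P0.5 fiber alone at 21.4%, ahead of the Rxrg promoter in that list. The strongest region of E14.5 epithelium alone was also in this window, 42.0 kb upstream of Rxrg, at 26.4%.

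In the Rara window the highest-ranked peak was not Rara's own but that of Cdc6, which encodes a replication licensing factor, at 2.32%, 3.21%, 9.54% and 12.6% in the 4 lists. The promoter of Top2a, a topoisomerase of dividing cells, ranked at 7.68%, 5.01%, 20.5% and 26.4%. Of the 56 regions of this window, 12 were at the promoters of Rara and 19 in its introns outside them. A total of 12 regions (21.4%) were called in all 4 lists, beside 10.9% of all regions, and 3 of these were the promoters of Cdc6, Gjd3 and Top2a. Another 4 of them lay where the gene body rests on predicted transcripts alone, before the first curated start. The strongest of them in P0.5 epithelium, at chr11:98929469-98930031, ranked at 24.3%, 23.5%, 21.5% and 15.7%.

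The Rarg window was led by the shared promoter of Csad, a taurine synthesis gene, and Zfp740, at 2.83% in epithelium and 1.68% in fiber at E14.5, against 11.8% in epithelium and 1.36% in fiber at P0.5. In P0.5 epithelium the Mfsd5 promoter ranked ahead of it, at 6.40%. The promoter of Espl1, which encodes separase, ranked at 5.66%, 5.60%, 15.1% and 18.2%. Inside Rarg, an intron region at chr15:102238818-102240199 was called in all 4 lists, at 17.8%, 15.9%, 52.3% and 26.4%.

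Summed over the gene body, the share of bases under peaks set Rxra apart. Peaks covered 7.31% of Rxra in epithelium and 28.5% in fiber at E14.5, against 4.92% in epithelium and 9.99% in fiber at P0.5. The ratio of covered bases, fiber over epithelium, was 3.90 at E14.5, and 3.85% of the 15290 genes covered in both lists had a larger one, with a median of 1.39. At P0.5 it was 2.03, with 10.4% of genes above it and a median of 0.948. Rxrb was covered over 31.7%, 35.2%, 11.0% and 23.6% of its short body, and its ratio of 2.14 at P0.5 was exceeded by 9.20% of genes. That ratio was 1.18 with a q value under 0.001 and 7.09 without the first 2 kb of the gene. At E14.5 the Rxrb ratio was 1.11, below the median.

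Rara was the most covered member at E14.5, with 34.0% in epithelium and 40.7% in fiber, and had 14.2% and 18.7% at P0.5. Rarg had 19.8%, 24.9%, 13.6% and 11.3% in the 4 lists, and Rxrg 5.21%, 4.59%, 1.96% and 3.06%. Rarb was covered least, with 1.21%, 1.67%, 0.581% and 0.224%, each under the median of all genes (2.71%, 4.23%, 1.51% and 1.38%). The other 5 members were above the median in every list. From E14.5 to P0.5, the covered bases of Rarb in fiber fell most among the members, with an E14.5 over P0.5 ratio of 7.45 that 8.35% of genes exceeded and a median of 2.51. The Rarb ratio was 17 with a q value under 0.001 and 4.70 with equal numbers of peaks, in both cases still the highest of the 6. In epithelium the same ratio was 2.09, beside a median of 1.63.

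**Figure D5:**
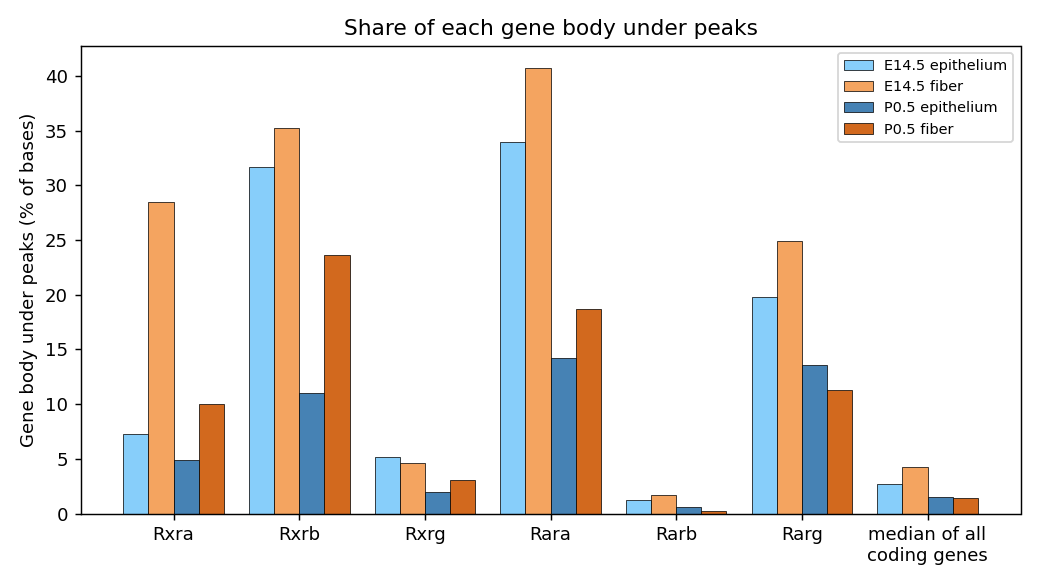
Share of bases of each gene body under peaks (vertical axis, percent), 1 bar per pooled list, with the median of all protein-coding genes of at least 1 kb at the right. Rxra rises from 7.31% in E14.5 epithelium to 28.5% in E14.5 fiber, and Rarb is the one member below the median in all 4 lists.

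The tissue labels were checked on marker genes in the same measure. Of 8 lens fiber markers, such as Cryaa and Mip, 7 were covered more in fiber at each stage, with medians at E14.5 of 17.1% in epithelium and 69.3% in fiber, and at P0.5 of 3.77% and 10.7%. Of 6 lens epithelium markers, 4 were covered more in epithelium at P0.5, but 5 were covered more in fiber at E14.5. Over all protein-coding genes covered in both lists, the median ratio of fiber over epithelium was 1.39 at E14.5 and 0.948 at P0.5. Most genes were thus covered more in fiber at E14.5, and the counts of that stage alone do not check the labels. Both lens sets had a peak on every gene in every list. The blood vessel set had medians of 0.462 to 2.22%, blood 1.71 to 3.28%, melanocyte and pigment epithelium 0.289 to 2.48%, and retina 0.402 to 5.79%, of which the retina and blood medians were higher in fiber than in epithelium at both stages. Their part in the results above was not tested.

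The other genes of the pathway had a promoter peak in most lists, as did most protein-coding genes. All 14 genes described for the supply, binding and breakdown of retinoids had a promoter peak in the 3 lists other than P0.5 fiber, where 12 had one, beside the shares of 64.6 to 71.2% of all protein-coding genes per list. Those without were Aldh1a1 (retinaldehyde oxidation) and Crabp1 (cellular retinoic acid binding), and in P0.5 fiber the bodies of these 2 genes held no peak either. In the other lists Aldh1a1 ranked at 14.8% in E14.5 epithelium, 19.0% in E14.5 fiber and 10.4% in P0.5 epithelium, and Crabp1 at 77.7%, 36.0% and 66.3%. Aldh1a1 thus ranked highest in P0.5 epithelium and was not called in P0.5 fiber.

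All 5 coregulator genes described, Ncor1, Ncoa1, Ncoa2, Ncoa3 and Nrip1, had a promoter peak in every list, with median ranks of 5.59%, 5.22%, 11.8% and 6.94%. Of 13 genes for receptors that pair with the retinoid X receptors, 12, 12, 11 and 10 had one. Vdr, the vitamin D receptor, had ranks of 25.3%, 29.6% and 33.9% and no peak in P0.5 fiber. The receptors of bile acids and foreign compounds known from liver, Nr1h4, Nr1i2 and Nr1i3, had a promoter peak in 2 lists each, none ranking ahead of 45.8%. The remaining 9 were open in all 4 lists, beside 60.6% of all protein-coding genes.

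Genes with the most similar promoter ranks were found by the Euclidean distance over the 4 log10 percent ranks, among the 12727 protein-coding genes with a promoter peak in all 4 lists. Nearest to Rxra were Osr2 (distance 0.0760) and Pcdh1 (0.0984). Rxrb had Slc39a7 at a distance of 0, since they share the peak, and then Srf (0.0689). Rxrg had BC029722 (0.147) and Zfp493 (0.166), and none of the genes compared lay within 0.1 of it. For Rara the nearest were Cdk5r2 (0.0430) and Gpc6 (0.0538), for Rarb Hsd17b10 (0.0374) and Nfkb2 (0.0376), and for Rarg Sh3kbp1 (0.0217) and Fndc4 (0.0281). The profile of Rxrg was thus the least common of the 6, and that of Rara, with 62 genes within 0.1, the most common.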

How the data were processed

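Per the labels and the study's methods, paired-end reads of 8 libraries were trimmed with Trim Galore 0.4.1 and mapped to mm10 with Bowtie2 2.3.3.1. They were cleaned with SAMtools 1.2 and Picard 2.1.1, and peaks were called with MACS2 2.1 at a q value of 0.05. The methods describe peaks called on individual samples, whereas the lists used here are named as pooled, 1 per group of 2 libraries. In the deposited lists the authors give each peak a fold enrichment over local background (a ratio at the summit), a −log10 p and a −log10 q. The fold ratio was used as a rank within its list, −log10 q for a stricter limit of 0.001 and −log10 p for equal numbers of peaks. 0 columns of values stayed unused for lack of a sample.

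Peaks were intersected with RefSeq GRCm38 gene bodies and curated starts, merged within 10 bp (numpy 2.4.6, pandas 2.3.3, python 3.11.15) and read as sequence with pysam 0.24.0 and samtools 1.23.1. Wilson intervals came from scipy 1.17.1 and figures from matplotlib 3.10.9. Coverage was taken over the 19631 protein-coding genes that span 1 kb or more. The steps were tested on simulated data. No test between groups was made, since pooled lists hold 1 value per group. The members and gene lists were chosen with earlier results of these data known, and 2 genes of the pathway lists are not reported here. Text names every member, the best peaks per member and list with the genes at them, the 3 highest-ranked regions of a pattern of lists as far as they bear on a result, list genes open in 1 to 3 lists, and 2 nearest genes per member. Alternatives were other windows, merge distances, promoters, thresholds, ranks and motif settings.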

Additional observations from a re-analysis of the deposited data

Results flagged for a closer look

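For 3 of the 6 receptor genes the bases of the gene body under peaks differed between tissues in opposite directions at the 2 stages. The ratio of fiber over epithelium for Rxrg was 0.880 at E14.5 against 1.56 at P0.5. For Rarb it was 1.38 at E14.5 against 0.386 at P0.5, and for Rarg 1.26 at E14.5 against 0.831 at P0.5. Rxrg no longer showed opposite directions under either of 2 alternatives, since its ratio was 1.06 at E14.5 with equal numbers of peaks and 0.606 at P0.5 with a q value under 0.001. The difference was not tested, as each value comes from 1 pooled list per group. Of the 13702 protein-coding genes covered in all 4 lists, 50.4% showed opposite directions, so that 3 of 6 members is near the background.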

How the results depend on the processing

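No paired analysis was possible because each group was deposited as 1 pooled list; for the same reason leaving out a replicate was not run. Differences between pooled lists therefore have no error between libraries, and the lists carry no depth.

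All 6 members kept a promoter peak in every list with promoters of 1 kb, the summit inside the promoter, predicted transcripts and lists of equal size (58592 peaks each, the strongest). With a q value under 0.001 all 6 did so in 3 lists and 5 in P0.5 fiber, where the Rxrg peak was lost. Windows of 0 kb left 166 merged regions. Their peaks numbered 108 in E14.5 fiber, 53 in P0.5 epithelium and 96 in E14.5 epithelium, with the remaining peaks in P0.5 fiber. Equal numbers of peaks left 77 peaks in E14.5 fiber, 90 in E14.5 epithelium, and 165 merged regions, of which 58.8% were called in P0.5 fiber, 46.7% in E14.5 fiber and 41.8% in P0.5 epithelium, beside 45.5%, 51.2% and 45.6% of all regions. With a q value under 0.001, 57 peaks remained in P0.5 fiber, the shares called were 65.8% in E14.5 epithelium, 70.5% in E14.5 fiber and 24.4% in P0.5 fiber, beside 59.3%, 72.5% and 19.9% of all regions, the share of Rarb regions called in P0.5 fiber was 2.78%, and 2 members in place of 4 were covered more in fiber at P0.5. Without the Rxra window the share in E14.5 epithelium was 62.9%, beside 49.4% of all regions. The DR1 share was 0 with the strict hexamer AGGTCA.

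The share of Rxra regions called in a fiber list and no epithelium list stayed between 53.3% (q value under 0.001, beside 35.1% of all regions) and 72.5% (windows of 0 kb), with 56.1% for equal numbers of peaks, beside 37.5%. The ratio of covered bases, fiber over epithelium, changed direction for Rxrb at E14.5 without the first 2 kb (0.764), for Rxrg at E14.5 with equal numbers of peaks (1.06), and at P0.5 with a q value under 0.001 for Rxrg (0.606) and Rara (0.99984). It moved by over 1.5 times at P0.5 for Rxrb (7.09) and Rxrg (3.56) without the first 2 kb, and for Rxrb (1.18), Rarb (0.149) and Rarg (0.383) with a q value under 0.001. Of 96 alternative promoter ranks 84 stayed within 1.5 times the main value, and the 12 that moved came from equal numbers of peaks. Of 72 alternative coverage values 61 did. Fewer peaks are tested by construction under the stricter limit and equal numbers; other causes were not tested.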
